A study of Mus musculus with 6 samples.

Results

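The 8 genes described here, Foxp3, Ikzf2, Il2ra, Ctla4, Icos, Tnfrsf4, Tnfrsf18 and Izumo1r, make up a signature of regulatory T cells, and were followed through brain immune cells of mice before and during experimental autoimmune encephalomyelitis (EAE). They were taken by symbol from the 28692 genes of the deposited matrices, and all 8 of 8 were found. EAE is an induced autoimmune inflammation of the central nervous system. The groups were C57BL/6 wild-type (WT) mice and miR-155KO (KO) mice on day 0, 13 or 21 of EAE, with 5 mice per group according to the labels. The submitters count days from induction and do not say whether the day 0 mice had been induced, so day 0 is taken only as the time before disease. Neither the age of the mice nor the extent of the deleted allele is given in the sources used here. Live CD45+ cells from tissue labelled brain, to which the protocol adds spinal cord, were sorted and captured as 1 droplet library per genotype and day, 6 libraries in all, and each transcript was counted once by its unique molecular identifier (UMI) near the 3′ end. Because each group is 1 library of pooled cells, a difference between the genotypes within a day has no replicate, and all intervals given with levels, shares and ratios are 95% intervals that cover counting error only.

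Regulatory T cells restrain other immune cells, and in EAE they are known for limiting inflammation and aiding recovery. Foxp3 is the transcription factor that defines the lineage, and the other genes are shared to different degrees with activated conventional T cells. Il2ra, Ctla4, Icos, Tnfrsf4 and Tnfrsf18 encode surface receptors that are induced by T cell activation as well, so that none of these 5 marks a regulatory T cell on its own. miR-155 is a microRNA that is induced in activated lymphocytes and is itself a target of Foxp3.

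T barcodes were defined as cell barcodes with 3 or more UMIs summed over Cd3e, Cd3d, Cd3g, Trac and Trbc2, which encode parts of the T cell receptor complex. There were 206, 844 and 2461 T barcodes in the WT libraries of days 0, 13 and 21, and 135, 741 and 448 in the KO libraries, 4835 of 20030 barcodes in all. They held 591045 to 12070507 UMIs per library, and the median T barcode held 3521 to 6331 UMIs. Many T barcodes also held RNA of other cells. The share that carried 3 or more UMIs of microglial, B cell, neutrophil or phagocyte markers as well was 37.9%, 63.7% and 55.6% in WT and 26.7%, 70.4% and 57.8% in KO on days 0, 13 and 21. Markers of NK and dendritic cells did not count toward this share. No doublets were removed, and values are given with and without these mixed barcodes where a result rests on them. The libraries shared 5 to 32 barcode sequences per pair. Mir155hg, the host gene of miR-155, had 0, 24 and 40 UMIs in the T barcodes of the WT libraries and 0, 0 and 1 in those of the KO libraries.

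The signature genes lie on 5 chromosomes (GENCODE coordinates, GRCm38, the assembly of mm10), and all are protein-coding. Foxp3 is at chrX:7573644-7595245, Il2ra at chr2:11642807-11693193 and Izumo1r at chr9:14885814-14903949. Ikzf2 is at chr1:69531214-69687245. Ctla4, at chr1:60887000-60915832, and Icos, at chr1:60977927-61000320, are neighbours 62.1 kb apart. The costimulatory receptor gene Cd28 lies 114 kb before Ctla4. Tnfrsf4, at chr4:156013843-156016612, and Tnfrsf18, at chr4:156026164-156028895, are only 9.55 kb apart. The sequence of miR-155 is shown because its absence separates the genotypes, with the seed, bases 2 to 8, in capitals (RefSeq, GRCm38.p6, chr16:84714143-84714165, + strand).
mmu-miR-155-5p: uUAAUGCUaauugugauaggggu
The 7 bases complementary to this seed, AGCATTA, occurred in the longest annotated 3′ UTR of 1742 of 20996 genes (8.30%). Among the 8 genes only Ctla4 had such a match, 1 in its 3′ UTR of 1115 bases, at chr1:60914964-60914993 on the + strand. The 30 bases around it are shown with the match in capitals.
Ctla4: gcagcataaggatatAGCATTAtggtgtgg
The longest 3′ UTRs of the other 7 genes, from 180 bases in Tnfrsf4 to 7554 in Ikzf2, did not hold these letters. A match of letters is a description and does not show a target site.

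RefSeq promoters, 250 bases before to 50 after the annotated start, were at hand for 6 of the 8 genes, all but Ikzf2 and Icos. They were searched on both strands for the forkhead motif TGTTTAC, with reverse GTAAACA, and for the core GGAAA, with reverse TTTCC, that NFAT factors bind after T cell receptor signalling. None of the 6 windows held the forkhead motif, which 3.55% of 27025 promoters hold, and all 6 held the NFAT core, which is in 61.3% of them. The promoters of Foxp3 and of the neighbours Tnfrsf4 and Tnfrsf18, whose transcripts were later found in the same barcodes, are shown with the NFAT core in capitals (GRCm38.p6, + strand, chrX:7579426-7579725, chr4:156013445-156013744 and chr4:156026072-156026371).
Foxp3: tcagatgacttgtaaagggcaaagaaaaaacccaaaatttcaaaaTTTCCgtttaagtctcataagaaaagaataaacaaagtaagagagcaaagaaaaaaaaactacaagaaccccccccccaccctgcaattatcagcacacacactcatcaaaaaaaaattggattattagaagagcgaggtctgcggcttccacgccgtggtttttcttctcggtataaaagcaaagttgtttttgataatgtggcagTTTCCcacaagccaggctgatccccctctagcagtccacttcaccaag
Tnfrsf4: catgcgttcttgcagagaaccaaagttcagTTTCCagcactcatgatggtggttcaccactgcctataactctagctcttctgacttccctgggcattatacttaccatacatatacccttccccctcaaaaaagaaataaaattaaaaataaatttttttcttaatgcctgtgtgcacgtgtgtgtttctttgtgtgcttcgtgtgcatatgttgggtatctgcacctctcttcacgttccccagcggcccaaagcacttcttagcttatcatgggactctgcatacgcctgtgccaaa
Tnfrsf18: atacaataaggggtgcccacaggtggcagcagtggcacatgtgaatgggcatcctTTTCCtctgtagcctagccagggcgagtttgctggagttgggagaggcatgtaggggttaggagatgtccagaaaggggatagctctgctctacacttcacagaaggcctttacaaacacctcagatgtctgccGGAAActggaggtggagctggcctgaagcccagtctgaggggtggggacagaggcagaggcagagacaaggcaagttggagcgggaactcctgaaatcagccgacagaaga
The Foxp3 and Tnfrsf18 windows held 2 cores each and the Tnfrsf4 window 1.

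The first question was in which cells the signature genes were expressed. Of all UMIs of Foxp3 in the 6 libraries, 95.4% were in T barcodes (906 of 950). The share was lowest for Tnfrsf18, at 83.9%, and highest for Izumo1r, at 96.4%. A Foxp3 UMI was found in 12.1% of all T barcodes (585 of 4835, median depth 4227 UMIs). In neutrophil barcodes, which should lack the gene, the share was 0.320% (5 of 1562, median depth 2822), and in B barcodes it was 0 of 1509 (median depth 2269, upper limit 0.244%). The corresponding shares for the 7 other genes ran from 12.8% for Il2ra to 50.1% for Tnfrsf18 in T barcodes, and from 0.064% to 4.55% in neutrophil barcodes.

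Outside T barcodes the genes differed among themselves. Tnfrsf18, which encodes the receptor GITR, was as abundant in natural killer (NK) barcodes as in T barcodes. Its NK level was 164, 199.8 and 176 counts per 1000000 UMIs (CPM) in the WT libraries of days 0, 13 and 21 and 131, 207 and 173 CPM in the KO libraries, from 14 to 42 UMIs each. Conventional dendritic barcodes carried Tnfrsf4, which encodes the receptor OX40, at 134 and 97.0 CPM in WT and 285 and 30.7 CPM in KO on days 13 and 21, and Tnfrsf18 at 134 and 69.7 CPM in WT and 238 and 67.0 CPM in KO. Il2ra was at 16.7 to 30.3 CPM in the same barcodes. Ikzf2, which encodes the transcription factor Helios, was at 24.9 to 38.3 CPM in microglial barcodes of the EAE libraries, where 6.06% to 10.8% of barcodes had a UMI. By contrast, Ctla4 and Izumo1r had 0 UMIs in the 265 conventional dendritic barcodes of these libraries, and Izumo1r had 0 in the 191 NK barcodes.

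**Figure D1:**
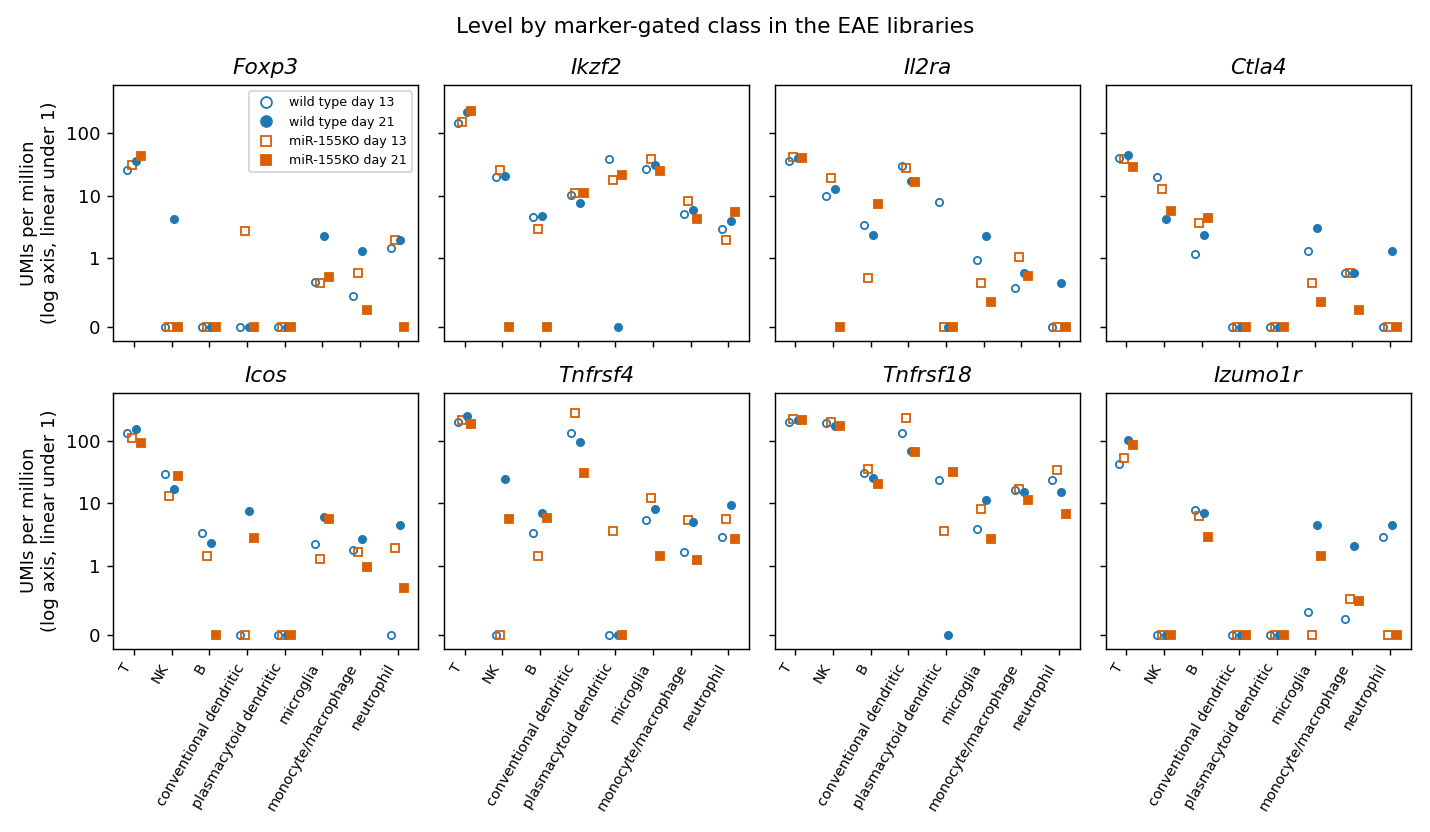
Level of each gene in CPM (log axis, linear under 1) by marker-gated class, with 1 point per EAE library (circles WT, squares KO, open day 13, filled day 21). Foxp3, Ctla4 and Izumo1r were lower in every other class than in T barcodes, Tnfrsf18 was at 173 to 207 CPM in NK barcodes, and Tnfrsf4 and Tnfrsf18 were also present in conventional dendritic barcodes.

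Most of the genes of their ligands reached a higher level in some other class than in T barcodes. Cd86, which encodes a ligand of Ctla4, was at 273 to 309 CPM in microglial barcodes of the EAE libraries, 75.3 to 336 CPM in conventional dendritic barcodes and 94.1 to 121 CPM in T barcodes. Cd80, the other Ctla4 ligand gene, reached 8.37 to 104 CPM in conventional dendritic barcodes, the lowest value from 3 UMIs in KO day 21. Its level was similar in microglial barcodes, at 5.47 to 8.24 CPM, and in T barcodes, at 4.72 to 7.66 CPM. Icosl, which encodes the ligand of Icos, was at 53.3 to 91.0 CPM in B and 52.9 to 81.8 CPM in microglial barcodes. Tnfsf4, the gene of the OX40 ligand, had 23 UMIs in the 265 conventional dendritic barcodes of the EAE libraries, 28 in the 4494 T barcodes and 1 in microglial barcodes. The GITR ligand gene Tnfsf18 had 0 UMIs in T barcodes of these libraries and was hardly detected elsewhere. Over all barcodes it had 2, 1, 1 and 0 UMIs in WT day 13, KO day 13, WT day 21 and KO day 21. Il2, which encodes the cytokine bound by the Il2ra product, was at 3.37 to 7.04 CPM in T barcodes.

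The second comparison asked how the genes changed with the course of disease, with both genotypes as the 2 libraries of a day and genotype as covariate. Between day 0 and day 13, 7 of the 8 genes rose in T barcodes, and Izumo1r did not pass the test. Over all 10939 genes tested, 5.21% rose (570 genes) by edgeR's quasi-likelihood test with Benjamini-Hochberg adjustment at 0.05. The median log2 difference was 2.28 over the signature genes and 0.0045 over all genes. The T barcodes also differed in kind between these days. Those with Cd4 and no Cd8 transcripts were 10.2% (WT) and 9.63% (KO) on day 0 and 30.1% and 30.5% on day 13, and those with Cd8 and no Cd4 transcripts were 44.2% and 31.1% on day 0 and 29.9% and 17.0% on day 13. The part of this shift in the rise was not tested. All days had their own number prefix in the sample titles, so that day and any batch this prefix marks cannot be told apart.

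Foxp3 was at 6.03, 26.1 and 36.5 CPM in the T barcodes of the WT libraries of days 0, 13 and 21, from 6, 155 and 441 UMIs, and at 1.69, 31.5 and 43.2 CPM in the KO libraries, from 1, 185 and 118 UMIs. Both day 0 libraries were thus below all 4 EAE libraries, and the order of the EAE libraries was the same in both genotypes, with day 21 above day 13. The rise to day 13 was 2.70 on the log2 scale (SE 0.415, edgeR adjusted p = 0.00988), or 6.50-fold. Without the WT library of day 0, which leaves 1 Foxp3 UMI on that day, the log2 difference was 4.20. Fewer cells of a type and less RNA per cell cannot be told apart in such sums. The level of Ikzf2 was 79.4, 145 and 218 CPM in WT and 59.2, 152 and 229 CPM in KO. It rose by 1.10 (SE 0.186, edgeR adjusted p = 0.0144), and the libraries of the 3 days did not overlap. Without the KO library of day 13, the adjusted p for Ikzf2 was 0.126 at a log2 difference of 0.988.

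Il2ra, the alpha chain of the high-affinity IL-2 receptor, was at 6.03, 36.0 and 40.2 CPM in WT and 8.46, 41.5 and 39.5 CPM in KO. It rose by 2.48 (SE 0.312, edgeR adjusted p = 0.0053) to day 13 and lay between 36.0 and 41.5 CPM in all 4 EAE libraries. The inhibitory receptor gene Ctla4 was at 11.1, 40.3 and 45.6 CPM in WT and 1.69, 38.8 and 29.3 CPM in KO, and rose by 2.51 (SE 0.437, edgeR adjusted p = 0.0154). On day 0 the KO value rests on 1 UMI and the WT value on 11. The log2 difference of Ctla4 was 4.38 without the WT library of day 0 and 3.34 without mixed barcodes. Icos, the costimulatory receptor next to Ctla4, was at 29.2, 137 and 160 CPM in WT and 32.1, 113 and 94.4 CPM in KO, and rose by 2.09 (SE 0.260, edgeR adjusted p = 0.00503). In WT the highest Icos level was on day 21, and in KO it was on day 13.

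Tnfrsf4 had the steepest rise of the 8 genes, at 19.1, 204 and 251 CPM in WT and 8.46, 221 and 187 CPM in KO. Its log2 difference between days 13 and 0 was 3.90 (SE 0.301, edgeR adjusted p = 0.00163), or 15.0-fold, and 4.58 without the WT library of day 0. Tnfrsf18, its neighbour on the chromosome, was at 99.5, 206 and 217 CPM in WT and 125, 231 and 222 CPM in KO, and rose by 0.98 (SE 0.172, edgeR adjusted p = 0.0154). That call was lost without the WT library of day 0 (adjusted p = 0.0683), the WT library of day 13 (0.0774) or the KO library of day 13 (0.137), at log2 differences of 0.86 to 0.99. Izumo1r, which encodes folate receptor 4, was at 38.2, 43.1 and 105 CPM in WT and 32.1, 53.6 and 87.4 CPM in KO. It differed by 0.46 between days 13 and 0 (SE 0.244, edgeR adjusted p = 0.286).

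**Figure D2:**
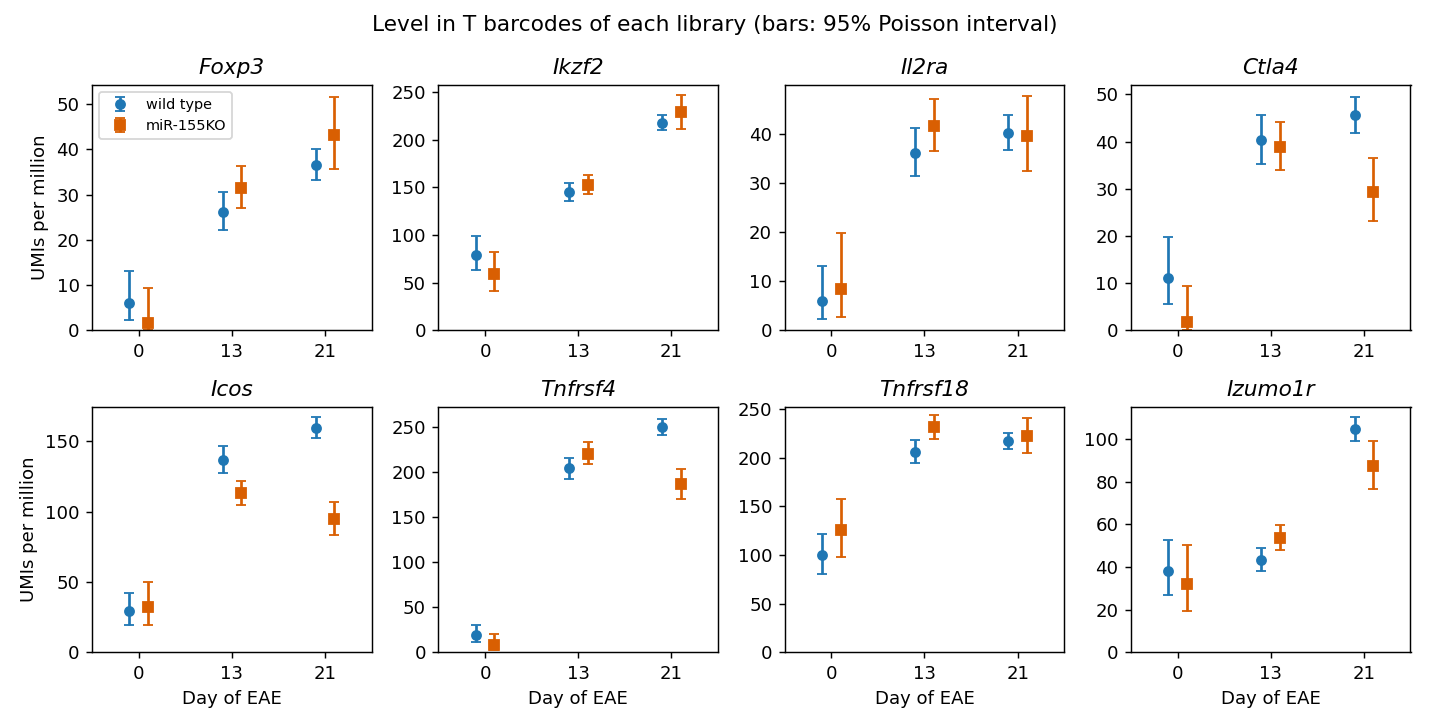
Level of each gene in T barcodes in CPM, by day of EAE, with 1 point per library (circles WT, squares KO) and 95% Poisson intervals. Every gene but Izumo1r was called higher on day 13 than on day 0 by the test. Izumo1r reached 87.4 and 105 CPM on day 21, and Icos, Ctla4 and Tnfrsf4 were lower in KO than in WT on day 21.

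Between days 13 and 21 none of the 8 genes passed the test, against 0.0274% of all genes (3 of 10939) that rose. At an unadjusted p under 0.05, 3 of the 8 differed, all higher on day 21. Izumo1r had the largest difference, 1.04 on the log2 scale (SE 0.184, edgeR adjusted p = 0.262), and was higher on day 21 in both genotypes. Its call depended on which libraries and barcodes were used. The edgeR adjusted p was 0.00827 without mixed barcodes. It was 0.0196 without the WT library of day 0 and 0.0125 without the KO library of day 0. In these fits and in the fit without the KO library of day 21, the log2 differences were 1.02 to 1.29. Over all fits that left out 1 library, the log2 difference of Izumo1r ran from 0.719 to 1.33. Ikzf2 was 1.54-fold (adjusted p = 0.341) and Foxp3 1.42-fold (adjusted p = 0.494) as abundant on day 21 as on day 13.

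Other genes with known roles around the signature moved less uniformly between days 0 and 13. Of 21 other regulatory T cell genes tested, 5 rose and 0 fell, with a median log2 difference of 0.89, beside 570 that rose and 351 that fell among all 10939 genes and the overall median of 0.0045. Klrg1, a receptor of differentiated effector and regulatory T cells, rose by 2.34, the actin regulator gene Capg by 1.60, the costimulatory receptor gene Tnfrsf9, which encodes 4-1BB, by 1.52, the activation-induced transcription factor gene Batf by 1.06 and the activation marker gene Cd83 by 1.04. Of 9 genes of IL-2 receptor and STAT5 signalling, Cish, a STAT5-induced inhibitor, rose by 1.32 and the survival gene Bcl2 fell by 1.36, while the receptor chains Il2rb and Il2rg had log2 differences of -0.27 and -0.06. The IL-2 list had a median of 0.03. Of 9 genes of conventional helper T cells, 0 rose and Tcf7, a transcription factor of resting T cells, fell by 0.76. Of 4 ligand genes tested, Cd86 rose by 0.94. Beside this, microglial markers summed to 2106 to 3239 CPM in T barcodes of the day 0 libraries and 706 to 1048 CPM on day 13. Phagocyte markers summed to 3805 to 5421 CPM on day 0 and 8714 to 9843 CPM on day 13. All 6 markers of each list were detected in each library. The part of this RNA in the result was not tested. In the lists of other regulatory, IL-2 and helper genes of ligands and of relatives, 0 genes passed between days 13 and 21.

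The next comparison set T barcodes with a Foxp3 UMI against T barcodes without one in the same library, with the library as a block. The libraries of day 0 held 3 and 1 Foxp3-positive barcodes, fewer than the 5 required, so the 4 EAE libraries entered, with 88 (WT day 13), 111 (KO day 13), 315 (WT day 21) and 67 (KO day 21) positive barcodes. All 7 other signature genes were higher in the Foxp3-positive barcodes, in 4 of 4 libraries each, against 1.89% of the 10052 genes tested (190 genes) that were higher. The median log2 difference was 1.96 over the 7 genes and -0.00078 over all genes. Since both sums of a library come from the same pooled mice, the p-values measure only how the difference varied over the 4 libraries.

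Il2ra was at 109, 120, 103 and 117 CPM in the positive barcodes of WT day 13, KO day 13, WT day 21 and KO day 21, and at 24.3, 21.9, 25.5 and 21.6 CPM in the negative ones. The log2 difference was 2.18 (SE 0.116, edgeR adjusted p = 3.21e-09), or 4.52-fold, and the positive and negative values varied little between libraries. Ctla4 was at 152, 98.0, 110 and 91.8 CPM in the positive and 22.1, 24.0, 30.7 and 14.8 CPM in the negative barcodes, a log2 difference of 2.17 (SE 0.147, edgeR adjusted p = 6.08e-08). Tnfrsf4 was at 730, 606, 576 and 526 CPM against 119, 125, 175 and 108 CPM, a log2 difference of 2.15 (SE 0.110, edgeR adjusted p = 2.52e-09). Each positive value of Tnfrsf4 was above the negative values of all 4 libraries.

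Ikzf2 was at 506, 400, 459 and 580 CPM in positive and 86.5, 90.8, 162 and 148 CPM in negative barcodes, a log2 difference of 1.96 (SE 0.120, edgeR adjusted p = 1.89e-08). Helios is thought to mark regulatory T cells formed in the thymus, but is also made by activated T cells. In the negative barcodes, Ikzf2 was higher in both day 21 libraries than in both day 13 libraries, while the positive barcodes showed no such order. Izumo1r was at 148, 113, 217 and 238 CPM in positive and 26.0, 38.9, 78.5 and 52.6 CPM in negative barcodes, a log2 difference of 1.78 (SE 0.138, edgeR adjusted p = 3.41e-07). Both classes of barcode had more Izumo1r on day 21 than on day 13 in each genotype.

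Tnfrsf18 differed by 1.58 (SE 0.092, edgeR adjusted p = 1.05e-08), at 519, 497, 420 and 565 CPM against 155, 165, 169.8 and 143 CPM. Icos had the smallest difference of the 7, 1.17 (SE 0.0877, edgeR adjusted p = 2.26e-07), at 276, 228, 272 and 172 CPM against 114, 84.0, 134 and 76.5 CPM. In both classes of barcode, each KO value of Icos was below the WT value of the same day. Among the 190 genes that were higher, the 7 signature genes ranked from 10 (Il2ra) to 41 (Icos) by size.

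**Figure D3:**
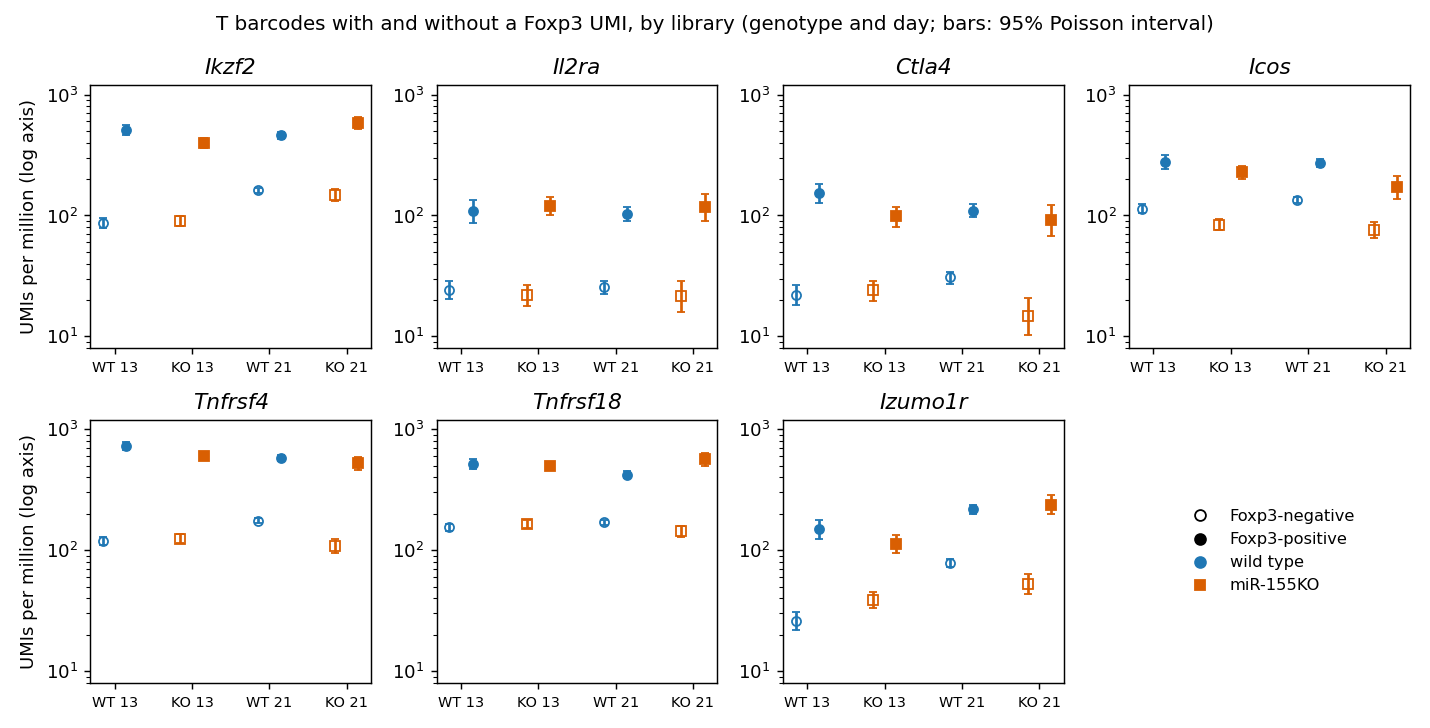
Level of the 7 other genes in Foxp3-negative (open) and Foxp3-positive (filled) T barcodes of each EAE library, in CPM on a log axis with 95% Poisson intervals (circles WT, squares KO). Positive barcodes were higher for every gene in every library, with the largest gaps for Il2ra, Ctla4 and Tnfrsf4 and the smallest for Icos.

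These 2 classes of barcode also differed in depth and in RNA of other cells. The median positive barcode held 7896.5, 9742, 5761 and 6156 UMIs in WT day 13, KO day 13, WT day 21 and KO day 21, and the median negative one 5275.5, 5777.5, 3265.5 and 4099. The positive barcodes held markers of another class in 81.8%, 82.9%, 72.1% and 74.6% of cases, and the negative ones in 61.6%, 68.3%, 53.2% and 54.9%. With the mixed barcodes left out, 16, 19, 88 and 17 positive barcodes remained in these libraries, in the same order. Most positive barcodes behind the levels above were thus mixed. All 7 genes were still called higher without them, as in every other alternative run. Shares of barcodes scale with depth, and levels in CPM are relative to all UMIs, RNA of other cells included. Ctla4 was at 40.3, 38.8, 45.6 and 29.3 CPM in all T barcodes of these libraries, in the same order. Without mixed barcodes it was at 76.6, 74.2, 62.8 and 34.3 CPM. The part of depth and of this RNA in the differences between positive and negative barcodes was not tested. Before thinning, 3 or more of the 7 genes were found in 92.0% to 95.5% of positive barcodes and in 23.8% to 27.6% of negative ones. After each barcode was thinned to 1500 UMIs, with positivity called again on the thinned counts, the shares were 51.9% to 66.9% and 8.20% to 12.1%.

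The signature was not confined to Foxp3-positive barcodes. These barcodes held 14.0% to 19.96% of the UMIs of all genes in T barcodes of an EAE library. They held 50.05% of the Il2ra UMIs of the 4 libraries (526 of 1051), 49.0% of those of Ctla4, 47.9% of Tnfrsf4, 44.4% of Ikzf2, 42.0% of Izumo1r, 38.9% of Tnfrsf18 and 32.9% of Icos (1203 of 3660). The remainder lay in barcodes with no Foxp3 UMI, which at this depth does not show that the gene was silent there. Of 1138 T barcodes with UMIs of 4 or more of the 8 genes, 593 (52.1%) had no Foxp3 UMI, and all 8 genes together were found in 0.89% to 1.38% of T barcodes per EAE library.

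By co-receptor transcripts, 22, 38, 66 and 21 of the Foxp3-positive barcodes of WT day 13, KO day 13, WT day 21 and KO day 21 had Cd4 and neither Cd8a nor Cd8b1. Another 21, 19, 64 and 1 had a Cd8 transcript and no Cd4, and 39, 49, 147 and 40 had neither. The Cd4 transcript was found in few T barcodes at all (10.4% to 33.8% per library), so that its absence does not set a barcode apart. Whether the barcodes with both Foxp3 and Cd8 transcripts held more than 1 cell was not tested.

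Beyond the signature, the 10 genes with the largest difference that were higher in the positive barcodes of all 4 libraries were Neb, Ccdc184, Frmd5, Ncmap, Ccr3, Sv2c, Tnfrsf9, Klrg1, Lrrc32 and Igsf23. Their log2 differences ran from 2.67 (Neb) to 2.02 (Igsf23). Most rest on few UMIs. Neb, which encodes the muscle protein nebulin, had 14, 29, 41 and 12 UMIs in positive barcodes and 16, 9, 41 and 3 in negative ones. The better covered ones were Tnfrsf9, at 281, 276, 197 and 268 CPM against 58.9, 51.7, 52.9 and 38.2 CPM (log2 difference 2.23, SE 0.110, edgeR adjusted p = 2.52e-09), and Klrg1, at 215, 213, 57.7 and 104 CPM against 33.9, 24.9, 29.5 and 20.2 CPM (2.19). Klrg1 in positive barcodes was lower in both day 21 libraries than in both day 13 libraries. Lrrc32, which encodes the TGF-beta docking receptor GARP, had a log2 difference of 2.12.

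Of 21 other regulatory T cell genes, 13 were higher in Foxp3-positive barcodes and 0 lower, with a median log2 difference of 0.66. Among all 10052 genes, 190 were higher and 191 lower, with a median of -0.00078. They included the Helios relative Ikzf4 (1.96), the cytokine gene Il10 (3.47, from 58 UMIs in T barcodes of all libraries), the integrin gene Itgae (1.33), the IL-33 receptor gene Il1rl1 (1.48) and the transcription factor gene Gata3 (0.57). Nrp1, a surface marker of thymic regulatory T cells that phagocytes also express, had a log2 difference of 0.13 (edgeR adjusted p = 0.674). Of 8 genes of conventional helper T cells, 3 were lower and 0 higher. Cd40lg, the helper ligand for B cells, was 3.44-fold lower, Tcf7 2.60-fold and the cytokine gene Il17a 3.97-fold. In the IL-2 and STAT5 list, Il2rb and Cish were higher by 0.33 and 0.52, and Bcl2 was 2.51-fold lower. Il2 itself had a log2 difference of -1.35 (edgeR adjusted p = 0.191). Of the relatives of the signature genes, Ikzf1 was 1.33-fold lower, and Cd28, the neighbour of Ctla4, had a log2 difference of -0.15 (edgeR adjusted p = 0.548).

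The last comparison asked whether the signature depended on miR-155. With the 3 days as replicates and day as a block, 0 of the 8 genes passed the test in T barcodes, and 0 of all 10939 genes did (0.0%). Before adjustment, 461 genes had a p under 0.05, none of them in the signature, and DESeq2 called 10 (7 higher and 3 lower in KO). The median log2 difference between KO and WT was -0.01 over the signature and 0.0033 over all genes. Ctla4 and Icos had the lowest values, -0.41 (SE 0.245) and -0.41 (SE 0.179), and Foxp3 the highest, 0.20 (SE 0.200), all with an edgeR adjusted p of 1. Ctla4 was lower in KO on 3 of 3 days and Tnfrsf18 higher on 3 of 3. An effect that differs between days adds to the spread in this test, so each day is also described on its own, as the ratio of the 2 libraries.

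Within days the genes differed from each other. On day 13, 0 of the 8 were 1.5-fold or more higher or lower in KO, against 3.25% and 3.43% of the 7723 genes measured at 10 CPM or more. On day 21, 0 were higher and 2, Icos and Ctla4, were lower, against 7.96% and 3.9% of 7791 genes. On day 0, of the 6 measured, 0 were higher and 2, Ctla4 and Tnfrsf4, were lower, against 11.9% and 16.6% of 8206 genes. Those 2 day 0 ratios had intervals that include 1, from 1 and 5 UMIs in KO. Beside these ratios, the T barcodes themselves differed in kind. Those with Cd8 and no Cd4 transcripts were 29.9% in WT and 17.0% in KO on day 13, and 38.6% and 12.1% on day 21. Microglial markers summed to 1048 CPM in WT and 706 CPM in KO T barcodes on day 13, and to 885 and 2260.2 CPM on day 21, and B cell markers to 64.0 and 229.6 CPM on day 13. The part of these differences in the ratios was not tested, and the ratios are therefore given within several kinds of T barcode.

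Icos was lower in KO on both EAE days in each kind of T barcode examined. In all T barcodes the KO to WT ratio was 0.825 (0.743 to 0.915) on day 13 and 0.591 (0.517 to 0.673) on day 21. In barcodes with Cd4 and no Cd8 transcripts it was 0.792 (0.668 to 0.938) and 0.483 (0.379 to 0.610), and without mixed barcodes 0.741 (0.601 to 0.909) and 0.663 (0.526 to 0.826). Foxp3-positive barcodes gave 0.827 (0.690 to 0.990) and 0.632 (0.500 to 0.791), and Foxp3-negative ones 0.736 (0.646 to 0.838) and 0.573 (0.485 to 0.672). All 5 intervals of each day thus lay below 1, though these sets of barcodes overlap and come from the same 2 libraries of a day. The ratio was 1.10 (0.584 to 2.03) on day 0, from 29 and 19 UMIs.

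On day 21, Ctla4 and Tnfrsf4 had ratios below 1 in 5 of the 5 sets, with the interval wholly below 1 in 4 of 5 for each gene. In T barcodes, Ctla4 had a KO to WT ratio on day 13 of 0.964 (0.800 to 1.16) and on day 21 of 0.642 (0.501 to 0.813), from 550 UMIs in WT and 80 in KO. It was 0.483 (0.327 to 0.694) in the Foxp3-negative and 0.838 (0.600 to 1.15) in the Foxp3-positive barcodes of day 21, and 0.645 (0.496 to 0.837) in the Foxp3-positive barcodes of day 13. The Ctla4 ratio of day 13 was 1.09 (0.829 to 1.42) in Foxp3-negative barcodes and 1.07 (0.756 to 1.51) in those with Cd4 and no Cd8 transcripts, both with intervals that include 1. For Tnfrsf4 the day 13 value was 1.08 (0.998 to 1.17) and the day 21 value 0.744 (0.676 to 0.817), with 0.543 (0.452 to 0.648) in the barcodes of day 21 with Cd4 and no Cd8 transcripts. Over the 5 sets of day 13 its ratios ran from 0.830 to 1.10, with 2 intervals wholly below 1 and 0 above. The 0.830 was in Foxp3-positive barcodes, at 606 CPM in KO and 730 CPM in WT. In the Foxp3-positive barcodes of day 21 the interval for Tnfrsf4 included 1, at 0.912 (0.797 to 1.04).

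Il2ra did not differ between the libraries beyond counting error on either EAE day, with ratios of 1.15 (0.955 to 1.39) and 0.983 (0.790 to 1.21). Ikzf2 had ratios of 1.05 (0.956 to 1.16) and 1.05 (0.960 to 1.15). Without mixed barcodes these became 1.36 (1.10 to 1.69) and 1.30 (1.10 to 1.54), and within Foxp3-positive barcodes they were 0.791 (0.692 to 0.904) on day 13 and 1.26 (1.11 to 1.44) on day 21. Over all 5 sets of day 21 the Ikzf2 ratio ran from 0.755 to 1.30, with 1 interval wholly below 1 and 2 wholly above. Tnfrsf18 had ratios of 1.12 (1.04 to 1.22) and 1.02 (0.936 to 1.12), and 1.34 (1.17 to 1.54) in Foxp3-positive barcodes of day 21. In Foxp3-negative barcodes of that day it was lower in KO, at 143 CPM against 169.8 CPM in WT, a ratio of 0.843. Of the 5 day 21 intervals of Tnfrsf18, 1 lay wholly below 1 and 1 wholly above. Izumo1r was higher in KO on day 13 and lower on day 21 in all T barcodes and in Foxp3-negative ones. In Foxp3-positive barcodes its KO level was below the WT level on day 13, at 113 against 148 CPM. On day 21 the KO level there was 238 CPM against 217 CPM in WT, with an interval that includes 1.

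**Figure D4:**
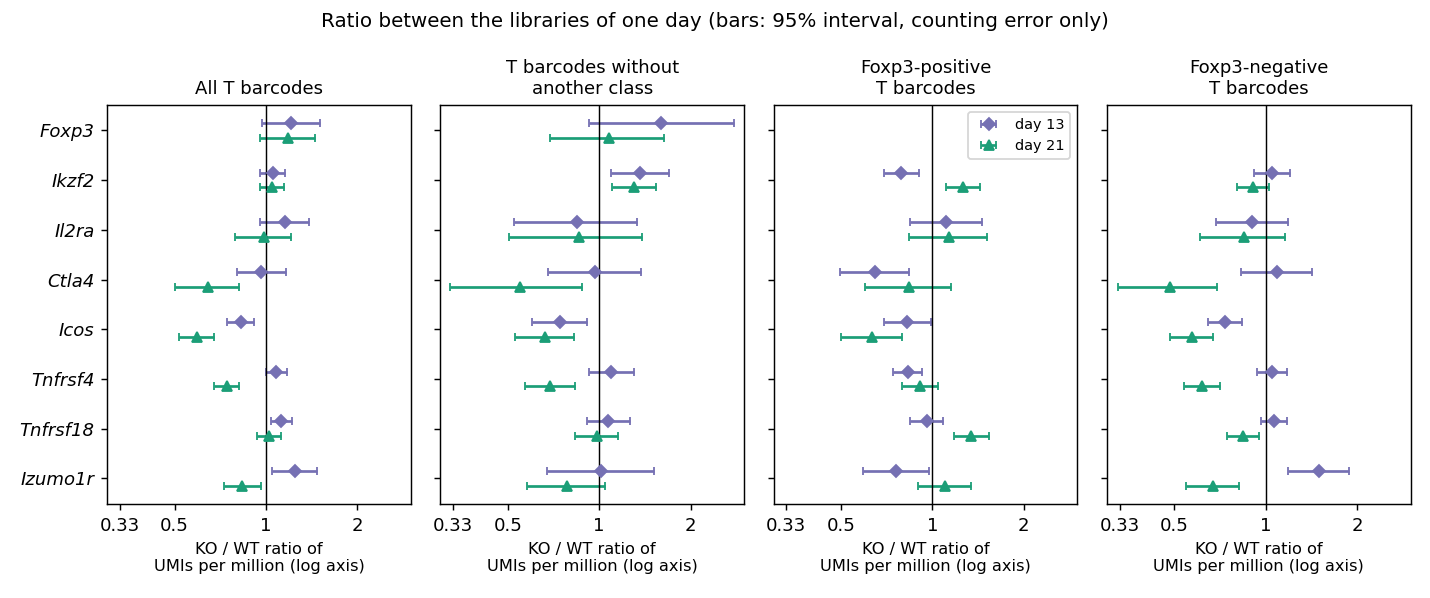
KO to WT ratio of each gene's level on day 13 (diamonds) and day 21 (triangles) in 4 sets of T barcodes, on a log axis with 95% intervals for counting error only. Icos lay below 1 in every set on both days, from 0.573 to 0.827, while Foxp3 and Il2ra had intervals that include 1.

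The same ratio for Foxp3 itself in T barcodes was 1.21 on day 13 (interval 0.969 to 1.503), and for day 21 it came to 1.18 (interval 0.956 to 1.45). Without mixed barcodes, the ratios were 1.60 (0.925 to 2.79) and 1.08 (0.688 to 1.63). On day 0 there were 6 UMIs in WT and 1 in KO. A Foxp3 UMI was found in 10.4% of WT T barcodes (88 of 844, 8.45% to 12.7%) and 15.0% of KO T barcodes (111 of 741, 12.5% to 17.8%) on day 13. On day 21 the shares were 12.8% (315 of 2461, 11.5% to 14.2%) and 15.0% (67 of 448, 11.8% to 18.6%), and on day 0 they were 1.46% (3 of 206) and 0.74% (1 of 135).

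The shares were also compared at equal depth. The median T barcode of day 13 held 5582.5 UMIs in WT and 6331 in KO. Thinning to 1500 UMIs left out 0 T barcodes. On day 13, a Foxp3 UMI was then found in 3.20% of WT T barcodes (27 of 844, 2.12% to 4.62%). In KO T barcodes of that day the share was 3.37% (25 of 741, 2.20% to 4.94%). On day 21 the thinned shares were 4.79% in WT and 6.25% in KO. Few barcodes stayed positive, and the part of depth in the day 13 gap was not tested. Among barcodes with Cd4 and no Cd8 transcripts the unthinned shares were 8.66% in WT (22 of 254) and 16.8% in KO (38 of 226) on day 13, and 15.9% (66 of 416) and 19.8% (21 of 106) on day 21. The median barcode of this kind was shallower in WT than in KO, at 5090.5 against 7954 UMIs (day 13) and 3679 against 5210.0 (day 21). When thinned to 1500 UMIs the shares were 2.36% (6 of 254) and 3.54% (8 of 226) on day 13 and 6.49% and 7.55% on day 21. Without mixed barcodes, the unthinned shares were 5.23%, 8.68%, 8.06% and 8.99% in WT day 13, KO day 13, WT day 21 and KO day 21. The median depths of these sets were 3128, 2960, 2180.5 and 2738 UMIs. In each of these comparisons the KO share of day 13 was above the WT share, and no set allows a test with 1 library per genotype.

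**Figure D5:**
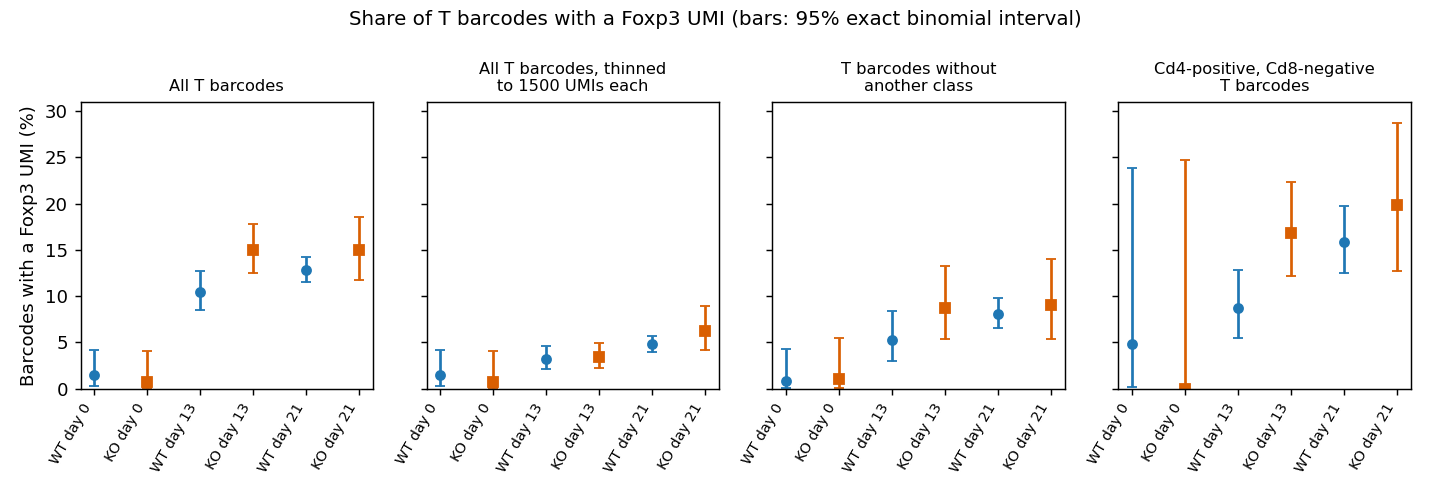
Share of T barcodes with a Foxp3 UMI (%) in each library, with 95% exact binomial intervals, in 4 sets of T barcodes (circles WT, squares KO). The share was higher in all EAE libraries than on day 0 in all T barcodes, and the WT and KO values of day 13, 10.4% and 15.0%, were 3.20% and 3.37% after thinning.

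At the edge of the T gate, barcodes with exactly 3 T cell receptor UMIs had a Foxp3 UMI in 4 of 12, 2 of 19, 8 of 63 and 1 of 16 cases in WT day 13, KO day 13, WT day 21 and KO day 21. Just outside, barcodes with exactly 2 had one in 2 of 28, 2 of 24, 4 of 92 and 0 of 16 cases. Few barcodes lay at this edge in any library.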

How the data were processed

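The values used were the deposited UMI counts, whole numbers per gene and barcode with no normalization. Per the submitters' processing notes, the authors used Cell Ranger 2.0.2 and mm10, while no source used here gives the counting options or any filtering of doublets. The 8 genes and the gene lists were chosen with earlier results of these data known. All 20030 barcodes were kept, and no doublet caller was run. T barcodes had 3 or more UMIs over 5 T cell receptor genes, and other barcodes took the class with the highest sum over its markers (3 or more, no ties). UMIs were summed per library and class and are given per 1000000 UMIs of the class (CPM). Because 1 molecule gives 1 UMI, levels do not depend on transcript length. Poisson, Clopper-Pearson and conditional intervals (95%) cover counting error only. T barcode sums were tested with edgeR 4.0.16 (glmQLFit, glmQLFTest, TMM, filterByExpr) at an adjusted p of 0.05, after a check on simulated data. Genotype was tested with day as a block over 6 libraries, days with genotype as covariate, and Foxp3-positive against Foxp3-negative sums with library as a block, with Foxp3 left out. Each group was 1 library, and p-values therefore measure the spread between libraries of different days or genotypes. Alternatives were DESeq2 1.42.0, no filter, other T gates (2 or more, 5 or more), leaving out mixed barcodes, Cd4-positive Cd8-negative barcodes alone, leaving out each library, and thinning to 1500 UMIs. The tests between days were not run in Cd4-positive Cd8-negative barcodes alone. Leaving out day 0 from the genotype test was chosen after seeing the data. Named genes were the 8 signature genes, the 10 others most raised with Foxp3 in every library, up to 6 genes per list with the most UMIs, every ligand, Mir155hg, Cd4, Cd8a and Cd8b1. Other list genes that passed a test were named after their values were seen. The 3′ UTRs came from GENCODE and the sequences of miR-155 and promoters from RefSeq. R 4.3.3 and Python 3.11.15 were used.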

Additional observations from a re-analysis of the deposited data

Results flagged for a closer look

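The KO to WT ratio of Izumo1r in T barcodes went opposite ways on the 2 EAE days. It was 1.243 (1.05 to 1.47) on day 13, from 256 UMIs in WT and 315 in KO, and 0.836 (0.725 to 0.961) on day 21, from 1262 and 239, so that both intervals excluded 1 on different sides. The difference between the days was not tested, because each ratio sets 1 library against 1. The opposite directions were found in Foxp3-negative barcodes, at 1.49 (1.19 to 1.88) and 0.671 (0.547 to 0.816). In Foxp3-positive barcodes the order was the other way round, at 0.758 (0.588 to 0.977) and 1.10 (0.893 to 1.34), and without mixed barcodes the day 13 ratio was 1.01 (0.674 to 1.51).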

How the results depend on the processing

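No paired analysis was possible because every group held 1 library, which leaves no replicate numbers to pair, and the blocks in the tests were the day or the library instead. All 7 genes higher in Foxp3-positive barcodes kept direction and call in every alternative run. All 8 genes kept their direction between days 0 and 13, but Cd4-positive Cd8-negative barcodes were not fitted for days. In WT barcodes of that kind, Foxp3 was at 43.4 CPM (3 UMIs) on day 0 and 22.9 CPM on day 13. Ctla4 was at 57.9 (4 UMIs) and 36.4 CPM there, and Icos at 43.4 (3 UMIs) and 167 CPM. In KO, Foxp3 went from 0 to 31.5 CPM and Ctla4 from 0 to 38.8 CPM, with 13 such barcodes on day 0. Genes called in all by KO against WT (0 higher, 0 lower) became 30 and 7 without mixed barcodes, 7 and 3 with DESeq2, 27 and 27 without the filter and 3 and 5 on days 13 and 21 alone, an alternative chosen after seeing the data. There were 0 and 2 at 5 T markers and 0 and 1 in Cd4-positive Cd8-negative barcodes. Leaving out 1 library gave 2 to 32 higher and 3 to 16 lower, and 0 of the 8 signature genes was called higher in any of these. That last count covers only genes higher in KO. On leaving out 1 library, the log2 difference ran from -0.806 to -0.147 for Ctla4 and from -0.51 to -0.146 for Icos.

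Between days 0 and 13, the counts (570 and 351) were 356 higher without mixed barcodes, and 990 and 530 without the filter. Leaving out 1 library gave 140 (without KO day 13) to 1008 (without KO day 21) higher, 75 to 605 lower, and 5 to 7 signature genes higher. Between days 13 and 21 (3 and 1) there were 16 and 26 without mixed barcodes, 5 and 5 with DESeq2, 54 and 120 without the filter, and 3 to 156 (without WT day 21) and 1 to 182 on leaving out 1 library. The signature count of 0 became 1, Izumo1r, without mixed barcodes, without the filter, and in 3 of the 6 fits that left out 1 library (range 0 to 1). Foxp3-positive against negative counts (190 and 191) were 62 and 57 in Cd4-positive Cd8-negative barcodes, 101 and 77 with DESeq2, 304 and 369 without the filter, and 79 (without KO day 13) to 199 and 79 to 170 without 1 library. The cause of these shifts was not tested.

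Signs of values that were not called turned in some alternatives. For KO against WT, leaving out 1 library gave log2 differences of -0.0995 to 0.0777 for Ikzf2, -0.551 to 0.02 for Tnfrsf4 and -0.246 to 0.232 for Izumo1r, against -0.02, -0.23 and -0.0087 with all libraries. At 5 T markers Ikzf2 was 0.0109 and Izumo1r 0.0297. On days 13 and 21 alone they were 0.077 and 0.0264. Without mixed barcodes, Ikzf2 was 0.326 and Il2ra -0.0712 (0.13 with all T barcodes). In Cd4-positive Cd8-negative barcodes, Il2ra was -0.22 and Tnfrsf18 -0.244 (0.18). Between days 13 and 21, leaving out 1 library gave -0.0807 to 0.251 for Il2ra, -0.496 to 0.303 for Ctla4, -0.3 to 0.409 for Tnfrsf4, -0.0876 to 0.189 for Tnfrsf18 and -0.297 to 0.347 for Icos. Without mixed barcodes, Il2ra was -0.1 and Icos -0.00328.

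The Foxp3 ratio of day 13 was 1.60 without mixed barcodes. The Foxp3 share of T barcodes in WT day 13, KO day 13, WT day 21 and KO day 21 (10.4%, 15.0%, 12.8% and 15.0%) was 5.23%, 8.68%, 8.06% and 8.99% without mixed barcodes, and 3.20%, 3.37%, 4.79% and 6.25% thinned to 1500 UMIs. In Cd4-positive Cd8-negative barcodes of day 21 it was 15.9% in WT and 19.8% in KO. On day 0, with 206 and 135 T barcodes, Foxp3, Il2ra and Ctla4 had 1 to 11 UMIs per library, which limits the precision of their folds.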
